A study of Mus musculus with 9 samples.

Results

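Cultured mouse astrocytes harvested on day 1 after a pulse of hydrogen peroxide were compared with untreated control cultures, gene by gene. The genes were taken by level and not by change: all 12611 genes whose mean over the 9 libraries of the series was at least 1 FPKM (fragments scaled by gene length and sequencing depth) entered, and 6 of the 9 libraries carried the comparison. The cells were primary cortical astrocytes grown from the cerebral cortex of mouse pups at postnatal day 4, in medium with horse and fetal bovine serum. The treated cultures received 200 µM hydrogen peroxide for 3 h, were washed, and were harvested 24 h later (day 1, 3 libraries) or 72 h later (day 3, 3 libraries). The 3 control libraries came from cultures given no peroxide, and the labels give no harvest time for them. Polyadenylated RNA was sequenced. The labels do not say whether the replicates were separate cultures, so every p-value below measures the spread between libraries, which may be technical.

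Astrocytes are the glial cells that take up glutamate from synapses, buffer potassium, couple to each other through connexin channels, carry lipid on apolipoproteins, and release proteins that act on synapses and vessels. Hydrogen peroxide is a reactive oxygen species that oxidises protein thiols, iron and DNA bases, and that cells remove with catalase, peroxiredoxins and glutathione peroxidases. After injury astrocytes become reactive, a state in which they change their cytoskeleton, their adhesion to matrix and the factors they secrete.

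The libraries held 23032594 to 38414668 reads, with 23032594 to 27850348 in the day 1 group. The 45S ribosomal RNA precursor took 9.41% to 11.9% of reads in control and 7.67% to 9.36% on day 1, ranges that do not overlap. The day 1 libraries lay apart from the other 6 on the first principal component, which held 64% of the variance. Reads on 32 collagen genes, the subject of the series title, made up 1.22% to 1.27% of the reads outside that precursor in control and 2.33% to 2.48% on day 1.

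The cells carried astrocyte markers in all groups. Of 16 defining astrocyte markers, 14 were tested, and the summed level of all 16 was 3802 to 3905 FPKM in control and 2754 to 3069 FPKM on day 1. Gfap, the astrocyte intermediate filament, stood at 1479, 1468 and 1531 FPKM in the control libraries and 1293, 1265 and 1148 FPKM on day 1. Aldh1l1, another marker, went the other way, from 87.8, 90.9 and 93.3 FPKM to 116, 116 and 104 FPKM, 1.26-fold higher. By the limma test described below, 10 of the 14 tested markers were lower and 2 higher (median log2 difference -0.48). Over all tested genes 31.1% were called each way. The fall of Gfap was not called after quantile normalization, an alternative scaling. Gjb6 and Slc7a10, markers of mature astrocytes, lay below the level tested. The culture also held RNA of other cells: 18 of 20 microglia markers, 14 of 18 oligodendrocyte lineage markers, 8 of 12 ependymal markers, 8 of 13 mural markers and 14 of 16 fibroblast markers were tested. So were 3 of 12 neuron markers and 2 of 11 endothelial markers. The sum of all 12 neuron markers was 102 to 104 FPKM in control and 109 to 112 FPKM on day 1. The sum of all 11 endothelial markers was 14.7 to 15.5 FPKM in control and 16.6 to 17.8 FPKM on day 1. The neuron markers Rbfox3, Snap25 and Gad1 and the endothelial markers Pecam1, Cldn5 and Tie1 lay below the level tested. In bulk RNA, fewer cells of a type and less RNA per cell cannot be told apart.

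On day 1, 7839 of the 12611 genes passed limma's test at a Benjamini-Hochberg adjusted p under 0.05 and are called changed here, which is 62.2%. They were split evenly, with 3923 higher (31.1%) and 3916 lower (31.1%), and most changes were small. The median fold among called genes was 1.22, and 6537 of them (83.4%) changed by less than 1.5-fold. At least 2-fold changes were found for 186 genes upward (1.47%) and 247 downward (1.96%), and at least 4-fold changes for 25 genes in each direction. The 3 values of one group lay clear of the other group for 8339 genes (66.1%), so a gene called on day 1 is the common case here, and sizes say more than calls. With 31.1% of all genes higher and 31.1% lower, a list with members on both sides is common too. Such a split is not read below as particular to a list.

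**Figure D1:**
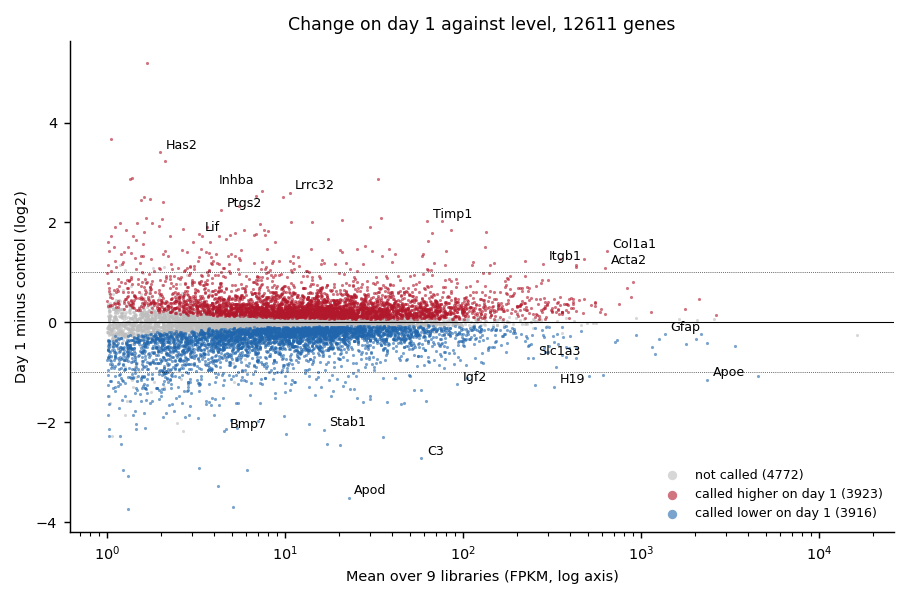
Change on day 1 against level for all 12611 genes: the x axis is the mean FPKM over 9 libraries on a log axis, the y axis the log2 difference of day 1 from control, and each point is a gene coloured by its call. Most called genes lie between the dotted lines at 2-fold, with Has2 and Inhba far above them and Apod and C3 far below.

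Among the largest rises was Has2 (chromosome 15, 56665627 to 56694546), which makes the matrix polysaccharide hyaluronan, at 0.381, 0.423 and 0.396 FPKM in control, 4.74, 4.88 and 5.64 FPKM on day 1 and 0.525, 0.457 and 0.391 FPKM on day 3. Has2 reached the mean of 1 FPKM only through its day 1 libraries, so it could not enter without differing, and its 10.6-fold difference is given as a description. The same holds for 50 of the 3923 higher genes, 33 of the 186 at least 2-fold higher among them. In the other direction 64 of the 3916 lower genes, 24 of the 247 at least 2-fold lower among them, reached it only through control. The list counts below include such genes, Has2 and Tfpi2 among them. Inhba (chromosome 13, 16004256 to 16031609), a subunit of the TGF-beta family ligand activin A, went from 2.69, 2.49 and 2.54 FPKM to 14.6, 15.4 and 18.2 FPKM, 6.16-fold (95% interval 5.35 to 7.1; limma, adjusted p = 7.58e-09). Lrrc32 (chromosome 7, 98489305 to 98501831), the surface anchor of latent TGF-beta also called GARP, went from 4.01, 3.53 and 3.44 FPKM to 20.9, 20 and 25.5 FPKM, 6.02-fold (5.1 to 7.11). Day 1 replicate 3 was the highest of the 3 for each of these genes, and no treated library came near a control. Crabp2, a carrier of retinoic acid in the cell, rose 5.75-fold from 2.52 ± 0.257 to 14.6 ± 0.728 FPKM (SD, n = 3). The leucine-rich repeat genes Lrrc17 and Lrrc15 rose 5.66-fold and 5.04-fold. Among more abundant genes, Timp1, an inhibitor of matrix metalloproteinases, went from 27.7, 28.8 and 30.6 FPKM to 111, 110 and 126 FPKM, 4.06-fold (3.69 to 4.46).

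Among the largest falls, Gpr17, a receptor known from oligodendrocyte precursors, went from 12.9, 11.1 and 11.3 FPKM to 0.871, 0.816 and 0.719 FPKM, 12.9-fold lower (11.3 to 14.7; limma, adjusted p = 1.17e-09). Apod (chromosome 16, 31296192 to 31314808), a lipid-binding apolipoprotein, was at 34.2, 35 and 34.7 FPKM in control and 3.14, 2.84 and 2.68 FPKM on day 1. The control values were nearly identical, and the fall was 11.4-fold (10.2 to 12.8; limma, adjusted p = 9.90e-10). C3 (chromosome 17, 57203967 to 57228136), on which the complement pathways converge, went from 93.7, 90.7 and 79.2 FPKM to 12.9, 14.8 and 11.5 FPKM, 6.57-fold lower (5.73 to 7.54). Bmp7 (chromosome 2, 172868012 to 172940321), a bone morphogenetic protein, went from 7.48, 6.89 and 6.68 FPKM to 1.39, 1.67 and 1.28 FPKM, 4.52-fold lower (3.93 to 5.2). Stab1, a scavenger receptor of macrophages, fell 4.42-fold from 21.5 ± 1.52 to 4.68 ± 0.235 FPKM. Sox10, a transcription factor of the oligodendrocyte lineage, fell 4.68-fold from 19.2 ± 0.609 to 3.99 ± 0.844 FPKM. The snoRNA Snord37 and the microRNA precursor Mir2861 also met the size rule, but both lie within other genes, and no source used here states how reads were assigned there, so their values are uncertain.

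**Figure D2:**
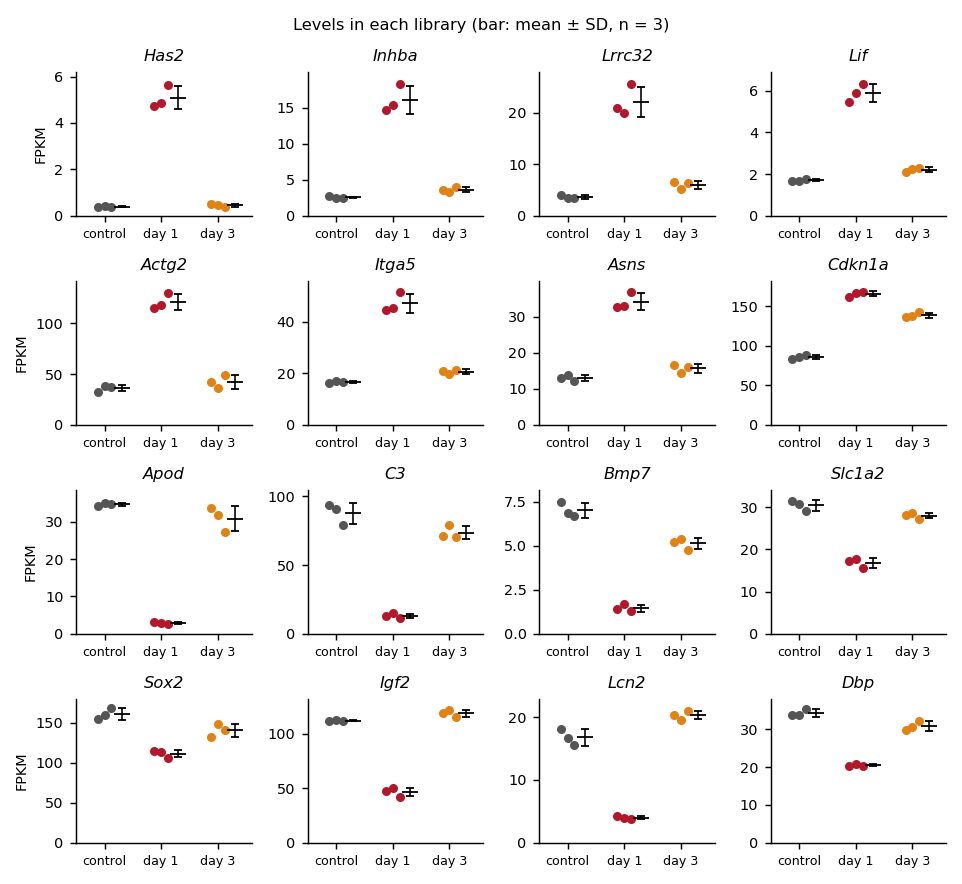
Level of 16 genes in each library: every panel shows FPKM from 0 for the 3 control, 3 day 1 and 3 day 3 libraries as points, with the mean and SD as a bar. Has2, Inhba, Lrrc32 and Lif are highest in the day 1 libraries, while Apod, C3 and Lcn2 are low there and near control again on day 3.

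Genes of secreted signals moved in opposite directions within the same family. Lif, a cytokine of the interleukin-6 family that acts on glia, went from 1.68, 1.67 and 1.78 FPKM in control to 5.47, 5.9 and 6.34 FPKM on day 1, 3.38-fold higher (3.01 to 3.8; adjusted p = 2.45e-08). In the EGF family, 3 of 8 tested genes were higher and 4 lower (median log2 difference -0.11, against -0.0014 over all 12611 genes). Hbegf, a ligand of the EGF receptor, went from 30.5, 32.2 and 31.3 FPKM to 49, 51.6 and 54.7 FPKM, 1.68-fold higher, and Nrg1, a neuregulin, was 1.44-fold higher. Tgfa, another ligand of the same receptor, went from 8.49, 9.08 and 9.08 FPKM to 3.91, 4.01 and 3.6 FPKM, 2.23-fold lower. The groups overlapped for none of these 3 ligands, nor for the receptor gene Erbb2, 1.25-fold lower. Egfr, the receptor itself, stood at 13.3 ± 0.577 FPKM in control and 13.9 ± 0.372 FPKM on day 1 (adjusted p = 0.0796). Among genes of FGF, PDGF, VEGF and HGF signalling, 14 of 28 were higher and 10 lower. Pdgfc rose 1.84-fold from 11.8 ± 0.391 to 21.3 ± 0.236 FPKM, while Pdgfb fell 2-fold from 19.9 ± 0.729 to 9.71 ± 0.23 FPKM. Pdgfra, a PDGF receptor that marks oligodendrocyte precursors and fibroblasts, fell 2.86-fold.

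Genes of the BMP list went both ways. All 24 tested members were called, 15 higher and 9 lower (median log2 difference 0.32). Fst, follistatin, which binds and blocks activins and BMPs, went from 2.41, 2.77 and 2.6 FPKM to 9.01, 8.52 and 9.35 FPKM, 3.44-fold higher (2.97 to 3.99). Fstl1, a related secreted glycoprotein, rose 1.66-fold to 331 ± 4.61 FPKM. Bmp6, the most abundant BMP ligand of the list, went from 62, 63.3 and 63.4 FPKM to 31.3, 29.8 and 27.9 FPKM, 2.07-fold lower (1.94 to 2.21), in the same direction as Bmp7. Chrdl1, a BMP antagonist that astrocytes release at synapses, fell 2.05-fold.

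Insulin-like growth factor genes were divided as well, with 6 of 13 higher and 6 lower. Igf2 (chromosome 7, 142650768 to 142666816), the fetal growth factor, went from 112, 113 and 112 FPKM to 47.2, 50.5 and 42.4 FPKM, 2.35-fold lower (2.19 to 2.54; adjusted p = 1.55e-08). The control libraries lay within a few FPKM of each other. Its neighbour H19, an imprinted non-coding RNA, went from 394, 397 and 426 FPKM to 162, 166 and 158 FPKM, 2.45-fold lower. Igf2r, the receptor that clears the ligand, rose 1.68-fold. Of the binding proteins that hold the ligand in the medium, Igfbp4 rose 1.89-fold and Igfbp7 1.78-fold, while Igfbp5 fell 1.56-fold from 434 ± 20.2 to 271 ± 3.67 FPKM. Over 20 imprinted growth genes, 7 were higher and 10 lower (median -0.09); Grb10, an adaptor of growth factor receptors, rose 1.5-fold.

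Among Wnt genes, 10 of 31 were higher and 12 lower (median -0.07). Dkk2, a secreted Wnt modulator, rose 2.75-fold to 5.56 ± 0.193 FPKM and Nkd2, an inhibitor within the pathway, rose 2.48-fold to 5.41 ± 0.223 FPKM. Sfrp1, a secreted Wnt antagonist, went from 36.2, 38.1 and 37.1 FPKM to 20.8, 20.7 and 19.5 FPKM, 1.78-fold lower. Notch genes were lower in 8 and higher in 4 of 15 (median -0.18). The ligand Jag1 and the target Hes1 rose 1.53-fold and 1.5-fold, while Lfng, a glycosyltransferase that tunes the receptor, fell 1.54-fold.

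A day after the pulse, immediate early genes, the transcription factors that respond first to growth factors, were higher in 11 and lower in 6 of 23 (median 0.05). Egr2 went from 2.47, 2.09 and 2.21 FPKM to 7.06, 7.41 and 8.22 FPKM, 3.33-fold higher (2.87 to 3.86), and Klf4 rose 2.12-fold. Myc went the other way, from 11.4, 12.6 and 11.9 FPKM to 6.96, 7.06 and 7.31 FPKM, 1.64-fold lower, and Jund, an AP-1 subunit, fell 1.49-fold. Genes that damp ERK signalling were lower in 10 and higher in 3 of 19 (median -0.09). The phosphatases Dusp4 and Dusp1 rose 1.54-fold and 1.32-fold, and the inhibitor Spry1 fell 1.43-fold.

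Actin cytoskeleton genes moved almost as one. Of 35 tested targets of the serum response factor SRF, which drives actin genes when actin polymerises, 31 were higher and 0 lower by limma, with a median log2 difference of 0.50. At an unadjusted p under 0.05 the number of lower members was also 0, as it was by limma-voom, and quantile normalization called 1 lower. Actg2, enteric smooth muscle actin, was at 32.7, 38.1 and 37.2 FPKM in control and 115, 118 and 130 FPKM on day 1, 3.44-fold higher (2.97 to 3.99; adjusted p = 1.21e-07). Tpm2, a tropomyosin that lies along actin filaments, went from 25.8, 27.7 and 27.6 FPKM to 65.5, 64 and 74.2 FPKM, 2.56-fold higher (2.32 to 2.83). The groups were far apart for both. Acta2, smooth muscle actin, rose 2.13-fold, and the near-identical coding sequences of the actins leave the split of reads among them uncertain. Actb, the most abundant actin, stood at 1619 ± 53.8 FPKM in control and 1670 ± 17.1 FPKM on day 1 (adjusted p = 0.0503).

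Beside these genes, the summed level of 8 tested mural markers was 1168 to 1265 FPKM in control and 2150 to 2224 FPKM on day 1. Acta2 and Tagln, which are also in the SRF list, made up most of it: without them the sum was 45.7 to 46.8 FPKM in control and 71.4 to 73.6 FPKM on day 1. The sum over all 16 fibroblast markers was 1442 to 1526 FPKM in control and 2806 to 2979 FPKM on day 1. Within it, the collagen gene Col1a1 alone went from 392 ± 20.3 FPKM to 1026 ± 49.8 FPKM. Of the mural markers, 6 were higher and 1 lower. The lower one fell by at least 2-fold, and the log2 differences of the list ran from -2.11 to 1.23. With a filter at a mean of 5 FPKM, 5 were higher and 0 lower. Kcnj8, Abcc9, Myh11 and Des, which define pericytes and smooth muscle, were below the level tested in this culture. The fibroblast markers were 8 higher and 6 lower: Cd248 rose 2.51-fold, while Dcn fell 4.9-fold from 45.1 ± 1.85 to 9.01 ± 1.5 FPKM. Their part in the actin, integrin and mesenchymal results was not tested.

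SRF binds a sequence called the CArG box. It was found in the promoter window (250 bases before to 50 after the start of transcription) of 7 of 30 SRF list members with a window (23.3%), against 1.52% of all 9983 tested genes with one. Members with the box had a median log2 difference of 0.49 and members without it 0.43, which lie close together. A match is a run of letters and not a measured binding site. The windows of 4 of the 7 are shown as examples of its letters, from RefSeq (GRCm38.p6), on the gene's strand, 5′ to 3′, with the box in capitals:
Actg1, chr11:120348554-120348607, minus strand: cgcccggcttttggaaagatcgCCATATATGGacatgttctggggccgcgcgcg
Myl9, chr2:156775281-156775334, plus strand: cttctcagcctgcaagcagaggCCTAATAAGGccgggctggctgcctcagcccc
Vcl, chr14:20929149-20929202, plus strand: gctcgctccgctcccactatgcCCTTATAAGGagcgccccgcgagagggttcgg
Cnn2, chr10:79988522-79988575, plus strand: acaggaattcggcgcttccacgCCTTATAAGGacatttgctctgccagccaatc
These 4 genes were chosen by the match. The box ends 80, 151, 217 and 46 bases before the start, in the order shown. Actg1 encodes cytoplasmic gamma actin and rose 1.39-fold, Myl9 encodes a myosin light chain and rose 1.61-fold, Vcl encodes the adhesion protein vinculin and rose 1.4-fold, and Cnn2 encodes a calponin and rose 1.25-fold.

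Integrins and the proteins that tie them to actin were higher in 23 and lower in 4 of 28 (median 0.35). Itga5, the alpha chain of the fibronectin receptor, went from 16.3, 16.8 and 16.6 FPKM to 44.7, 45.2 and 51.4 FPKM, 2.89-fold higher (2.66 to 3.14; adjusted p = 7.58e-09). Its partner Itgb1, chosen after its values were seen, went from 193, 187 and 197 FPKM to 415, 417 and 435 FPKM, 2.25-fold higher. Every day 1 library exceeded every control for both chains. Tes, a focal adhesion protein, rose 2.28-fold, whereas the adaptors Tns2 and Lims2 fell 1.44-fold and 1.28-fold.

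Targets and effectors of YAP and TEAD, the transcription factors that answer to cell tension, were higher in 19 and lower in 4 of 28 (median 0.22). The known targets Ccn1 and Ccn2 rose little: Ccn1 went from 253, 268 and 262 FPKM to 294, 308 and 320 FPKM (1.2-fold) and Ccn2 from 483, 475 and 508 FPKM to 611, 572 and 612 FPKM (1.25-fold). Quantile normalization ended the call for Ccn2 (adjusted p = 0.276). Foxf2, also a mesenchymal transcription factor, rose 3.33-fold, and Nuak2, a kinase, fell 1.55-fold. The TEAD letters GGAATG were in the windows of 10 of 21 members (47.6%, against 14.4% of all genes), and members with them had a lower median (0.03) than members without (0.36).

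Cadherins and other adhesion molecules were higher in 15 and lower in 9 of 27 (median 0.13). Cdh6 rose 1.93-fold to 5.5 ± 0.0543 FPKM and Ncam1, the neural cell adhesion molecule, 1.74-fold to 44.6 ± 0.813 FPKM. Cadm4, an adhesion molecule of glia, fell 1.52-fold from 352 ± 12.9 to 226 ± 9.49 FPKM.

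Genes of the matrix around the cells went both ways. Of 10 tested hyaluronan genes, 7 were higher and 1 lower (median 0.30): Cd44, the receptor, went from 27.9, 29.1 and 28 FPKM to 50.6, 50.7 and 51.5 FPKM, 1.84-fold higher, while Ugdh, which supplies a sugar precursor, fell 1.12-fold. The 7 include Has2, which reached the level tested only through day 1, and a filter at a mean of 5 FPKM left 3 higher. Of 19 laminin and basement membrane genes, 13 were higher and 6 lower (median 0.20). The type IV collagens Col4a1 and Col4a2, the network formers of basement membranes, rose 1.72-fold and 1.62-fold, while Lamb2, a laminin chain, fell 1.39-fold. All 17 annexin and S100 genes were called, 12 higher and 5 lower (median 0.37). These are calcium-binding proteins at the membrane and in the cytoplasm. Anxa1 went from 74.7, 68.8 and 76 FPKM to 150, 156 and 171 FPKM, 2.22-fold higher, S100a6 rose 1.53-fold, and the glial S100b fell 1.6-fold.

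The plasminogen activator system and tissue factor control proteolysis and clotting outside the cell, and 10 of 12 tested genes of that list were higher and 1 lower (median 0.56). Plaur, the urokinase receptor, went from 2.96, 2.92 and 3.14 FPKM to 7.4, 7.26 and 8.55 FPKM, 2.58-fold higher (2.27 to 2.93; adjusted p = 2.53e-07). The fallen member was Thbd, the anticoagulant thrombomodulin, at 16.6, 15.6 and 16.4 FPKM in control and 11.1, 11.2 and 10.5 FPKM on day 1. The letters TGANTCA, which AP-1 factors bind, were in the windows of 5 of 8 members with a window, against 6% of all 9983 genes. The median log2 difference was 0.80 with the letters and 0.42 without them. Among the holders not shown, Procr had a log2 difference of 0.69 and F3, the tissue factor gene, only 0.127. The letters are shown for 3 members that rose more, in capitals, on the gene's strand:
Plaur, chr7:24462392-24462442, plus strand: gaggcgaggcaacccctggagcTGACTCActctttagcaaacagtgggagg
F2r, chr13:95618642-95618692, minus strand: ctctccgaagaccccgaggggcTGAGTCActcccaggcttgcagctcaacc
Tfpi2, chr6:3968424-3968474, minus strand: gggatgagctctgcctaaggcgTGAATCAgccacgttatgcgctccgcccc
F2r, the thrombin receptor, and Tfpi2, an inhibitor of tissue factor, were chosen by the match. F2r went from 44.2, 45.4 and 46.9 FPKM to 76, 78 and 78.6 FPKM, 1.74-fold higher. Tfpi2 went from 0.441, 0.696 and 0.404 FPKM to 3.17, 2.9 and 3.32 FPKM, a 5.48-fold difference, and like Has2 it reached the level tested only through day 1, so it is no independent case among the members with these letters.

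Transcription factors of astroglia and of mesenchyme moved apart. Of 32 tested factors of astroglia and radial glia, 24 were lower and 2 higher (median -0.24), and 0 of them fell by 2-fold or more. Sox2, which keeps neural progenitor and glial identity, was at 154, 160 and 168 FPKM in control and 114, 113 and 106 FPKM on day 1, 1.42-fold lower (1.32 to 1.52; adjusted p = 4.07e-06). Hopx, a homeodomain protein of radial glia and astrocytes, fell 1.36-fold. The 2 higher members were Nfib (1.11-fold) and Rorb, and leaving out control replicate 3 or day 1 replicate 1 left 1 of them. Of 24 mesenchymal factors, 15 were higher and 5 lower (median 0.56). Foxf2 went from 1.8, 1.46 and 2.07 FPKM to 6.15, 5.34 and 6.44 FPKM, 3.33-fold higher (2.77 to 4), and Snai2, a repressor known from epithelial to mesenchymal transition, went from 2.31, 2.7 and 2.8 FPKM to 5.76, 5.57 and 6.39 FPKM, 2.27-fold higher. Cebpd and Cebpb, which also serve inflammation, fell 1.69-fold and 1.18-fold.

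Genes of glutamate and GABA handling were lower more often than higher, 14 against 5 of 24 tested (median -0.20). Slc1a2 (chromosome 2, 102658239 to 102790784), the glutamate transporter GLT-1, was at 31.4, 30.8 and 29 FPKM in control and 17.3, 17.6 and 15.5 FPKM on day 1, 1.77-fold lower (1.64 to 1.9; adjusted p = 1.96e-07). Slc1a3 (chromosome 15, 8634124 to 8710807), the transporter GLAST, went from 298, 310 and 292 FPKM to 189, 184 and 161 FPKM, 1.65-fold lower (1.53 to 1.78). For both, each treated library was below each control. The glycine transporter gene Slc6a9 was called higher at 1.09-fold, a call lost on FPKM as deposited (adjusted p = 0.0734) and without control replicate 2 (0.0682) or day 1 replicate 2 (0.0503). Without rescaling, 2 genes of the list were called higher in place of 5.

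Connexin and channel genes were lower in 15 and higher in 5 of 27 (median -0.25). Gjc3, a connexin best known from oligodendrocytes, fell 3.74-fold from 5.09 ± 0.261 to 1.27 ± 0.17 FPKM. Fxyd1, a regulator of the sodium pump, went from 75.1, 75.3 and 79.7 FPKM to 28.2, 31.9 and 28.2 FPKM, 2.55-fold lower (2.31 to 2.81). Gja1, connexin 43, the main gap junction protein of astrocytes, was at 176, 177 and 173 FPKM in control and 193, 191 and 169 FPKM on day 1 (1.07-fold, 1.01 to 1.14; adjusted p = 0.0546), and its groups overlapped. It passed the threshold without day 1 replicate 3 (adjusted p = 0.00116). Aqp4, the water channel of astrocyte endfeet, was 1.12-fold higher and called so by the main scaling, but not by quantile normalization (adjusted p = 0.222), which left 1 higher gene in this list.

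Factors by which astrocytes act on neurons were divided. Of 19 synaptogenic factors, 5 were higher and 11 lower (median -0.20). Thbs2, a thrombospondin that induces synapses, went from 67.6, 67.2 and 69.2 FPKM to 233, 228 and 233 FPKM, 3.47-fold higher (3.25 to 3.72; adjusted p = 1.47e-09), and Thbs1 rose 1.97-fold. Nlgn3, a neuroligin, fell 1.66-fold. Of 54 axon guidance genes, 23 were higher and 18 lower (median 0.05). Unc5b, a netrin receptor, went from 3.76, 3.25 and 3.33 FPKM to 13.5, 12.5 and 14.1 FPKM, 3.89-fold higher, and Sema7a, a membrane-anchored semaphorin, went from 4.14, 3.91 and 4.61 FPKM to 14.4, 13.8 and 16.8 FPKM, 3.57-fold higher. The secreted semaphorins Sema3d and Sema3b fell 2.31-fold and 1.77-fold.

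Clock genes went both ways. Of 20 tested, 6 were higher and 11 lower (median -0.21). Arntl, which encodes the activator BMAL1, went from 10.7, 10.9 and 12.1 FPKM to 18, 18.2 and 18.1 FPKM, 1.64-fold higher. Dbp, an output gene that BMAL1 drives, went from 33.7, 33.9 and 35.5 FPKM to 20.4, 20.8 and 20.3 FPKM, 1.64-fold lower, and the repressors Per1 and Per3 fell 1.44-fold and 1.56-fold. Nfil3, a repressor as well, rose 1.26-fold. Harvest time was not given for the controls, so the time of day and the treatment cannot be told apart for this list. Targets of the glucocorticoid receptor were higher in 6 and lower in 7 of 18 (median 0.04).

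Most complement genes were lower. Of 22 tested, 18 were lower and 2 higher, with a median log2 difference of -0.93 and a summed level over all 26 listed genes of 1247 to 1310 FPKM in control and 532 to 580 FPKM on day 1. C1qa, part of the initiating complex, went from 58.3, 66.1 and 57.1 FPKM to 20, 19.3 and 17.8 FPKM, 3.09-fold lower (2.65 to 3.6). C4b and Serping1, chosen after their values were seen, fell 2.98-fold and 3.01-fold. The 2 higher members were Masp1, a protease of the lectin pathway (2.23-fold), and Cd55, an inhibitor of the convertase (1.45-fold, at 1.65 ± 0.134 FPKM).

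Microglia markers share C1qa, C1qb, C1qc and Itgam with the complement list, 4 of 18 and 4 of 22 tested genes. Of the 18 tested, 17 were lower and 1, Tmem119, was 1.72-fold higher; the summed level of all 20 listed was 408 to 448 FPKM in control and 178 to 197 FPKM on day 1. P2ry12 and Siglech, which define homeostatic microglia, lay below the level tested. Oligodendrocyte lineage markers were lower in 12 and higher in 1 of 14, with sums of 687 to 716 and 450 to 486 FPKM, and Mog, Mag, Enpp6 and Opalin were below the level tested. Ependymal markers were lower in 7 and higher in 0 of 8, with 0 also at an unadjusted p under 0.05 and by limma-voom, and sums of 154 to 169 and 89.9 to 102 FPKM. The part of these cells in the falls of complement, lysosomal, lipid and channel genes was not tested.

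Other inflammatory lists were lower in part. Interferon-stimulated and MHC class I genes were lower in 19 and higher in 4 of 29 (median -0.25): Ifitm1 fell 2.66-fold and Bst2 1.61-fold, while B2m, the light chain of MHC class I, rose 1.31-fold and Irgm1 1.48-fold. Acute phase genes of reactive astrocytes were lower in 11 and higher in 7 of 19 (median -0.22). Lcn2 (chromosome 2, 32384637 to 32387739), an iron-binding lipocalin used as a marker of reactivity, went from 18.1, 16.7 and 15.5 FPKM to 4.21, 3.87 and 3.77 FPKM, 4.07-fold lower (3.7 to 4.47; adjusted p = 3.50e-09). Chil1, a secreted chitinase-like protein, fell 2.35-fold, and Ptx3, a pentraxin, rose 1.91-fold. Chemokine and cytokine genes were higher in 5 and lower in 9 of 19 (median -0.07), with Tnfrsf11b, a decoy receptor, 2.29-fold higher and Csf1, which sustains microglia, 1.26-fold lower.

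Prostaglandin genes went both ways. Of 17 tested, 7 were higher and 7 lower (median -0.07). Ptgs2 (chromosome 1, 150100031 to 150108234), the inducible cyclooxygenase, went from 1.7, 1.87 and 1.72 FPKM to 8.15, 8.14 and 9.26 FPKM, 4.72-fold higher (4.18 to 5.34), and Pla2g4a, a phospholipase that frees its substrate, rose 1.49-fold. Pla2g5, another phospholipase A2, fell 1.94-fold. Ptgds, a synthase of prostaglandin D2, went from 44.4, 37.3 and 28 FPKM to 8.19, 5.58 and 5.56 FPKM, 5.48-fold lower (4.16 to 7.21), and its control values were spread widely. Apolipoprotein and lipid transport genes were lower in 16 and higher in 8 of 32 (median -0.13). Plin2, which coats lipid droplets, rose 1.51-fold to 59.6 ± 2.3 FPKM, and Clu, which encodes clusterin and was chosen after its values were seen, went from 775, 810 and 783 FPKM to 377, 389 and 357 FPKM, 2.06-fold lower.

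The machinery that makes and exports protein was mostly higher, by small amounts. Of 77 tested ribosomal protein genes of the cytosol, 66 were higher and 1 lower (median log2 difference 0.29), with a summed level over all 79 listed of 15593 to 17294 FPKM in control and 19897 to 20210 FPKM on day 1. Rpsa went from 161, 179 and 175 FPKM to 267, 266 and 273 FPKM, 1.6-fold higher, and Rps24 rose 1.45-fold. Many have processed pseudogenes, so their absolute levels are uncertain. Quantile normalization called 52 higher. Of genes that build ribosomes, 13 of 43 were higher and 10 lower (median 0.04), with Npm1, nucleophosmin, 1.55-fold higher and Gar1 1.22-fold lower. The background by level matters here, since abundant genes were called higher more often than others: 56.2% of the 470 genes at 100 FPKM and above were higher.

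Aminoacyl-tRNA synthetases, which load amino acids on their tRNAs, were higher in 19 and lower in 0 of 24 by limma (median 0.24). At an unadjusted p under 0.05, and by limma-voom, 0 were lower, and 1 was lower without day 1 replicate 1. Gars, for glycine, went from 33.9, 35.5 and 35.5 FPKM to 58.4, 61.9 and 63 FPKM, 1.78-fold higher (1.68 to 1.89; adjusted p = 3.80e-08), and Iars, for isoleucine, rose 1.57-fold. Genes of amino acid supply and other targets of ATF4, the transcription factor of the integrated stress response, were higher in 23 and lower in 3 of 33 (median 0.40). Asns (chromosome 6, 7675165 to 7693209), asparagine synthetase, was at 13, 13.9 and 12.2 FPKM in control and 32.8, 33 and 36.8 FPKM on day 1, 2.67-fold higher (2.41 to 2.95). Trib3, a pseudokinase that feeds back on ATF4, went from 2.11, 1.84 and 1.55 FPKM to 6.49, 6.44 and 8.07 FPKM, 3.76-fold higher. The 3 fallen members were Cbs (1.31-fold), Slc3a2 (1.14-fold) and its partner in the cystine transporter, Slc7a11, which went from 3.1, 2.76 and 2.73 FPKM to 2, 2.23 and 2.05 FPKM.

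ATF4 binds composite elements called CARE, searched here as TGATGNAA on both strands. The letters were in the windows of 8 of 28 members of the amino acid list (28.6%) and 5 of 17 synthetases (29.4%), against 2.57% of all 9983 genes. In the amino acid list the median log2 difference was 0.77 with the letters and 0.13 without them. Among synthetases it was 0.53 with and 0.18 without. The lists hold known targets and the pairs of list and motif were chosen after the shares were seen, so no test was made. Other pairs differed less or lay the other way. The medians with and without the motif were 0.24 and 0.31 for mitosis genes and TTTGAA, and 0.16 and 0.19 for proteasome subunits and CCGGAAGT. They were 0.05 and 0.04 for lysosomal genes and CACGTG, and -0.15 and -0.37 for interferon-stimulated genes and GAAANNGAAA. The elements of 7 members are shown from RefSeq (GRCm38.p6), 5′ to 3′ on the gene's strand, with the letters or their reverse complement in capitals:
Asns, chr6:7693210-7693254, minus strand: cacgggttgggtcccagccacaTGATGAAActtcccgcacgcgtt
Nupr1, chr7:126625551-126625602, minus strand: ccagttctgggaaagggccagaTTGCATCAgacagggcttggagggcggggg
Pycr1, chr11:120643822-120643873, minus strand: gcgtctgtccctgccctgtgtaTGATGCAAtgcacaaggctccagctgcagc
Gars, chr6:55037949-55038000, plus strand: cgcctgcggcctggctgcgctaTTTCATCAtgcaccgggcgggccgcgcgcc
Aars, chr8:111033708-111033759, plus strand: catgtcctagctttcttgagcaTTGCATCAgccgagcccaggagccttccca
Tars, chr15:11399659-11399695, minus strand: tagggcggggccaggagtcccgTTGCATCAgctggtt
Slc7a11, chr3:50443650-50443701, minus strand: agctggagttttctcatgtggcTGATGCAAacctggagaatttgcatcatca
Slc7a11 has 2 matches, and the second, on the other strand and 39 bases from the start, is left in lower case. Its first has the same 8 letters as that of Pycr1, yet Slc7a11 fell 1.32-fold (1.16 to 1.51) and Pycr1, which completes proline synthesis, rose 1.71-fold (1.55 to 1.9). Nupr1, a small stress-induced nuclear protein, went from 44.2, 41.3 and 46.5 FPKM to 92.8, 100 and 101 FPKM, 2.28-fold higher. The alanine and threonine synthetases Aars and Tars rose 1.45-fold and 1.43-fold. All but Asns, Gars and Slc7a11 were chosen by the match.

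**Figure D3:**
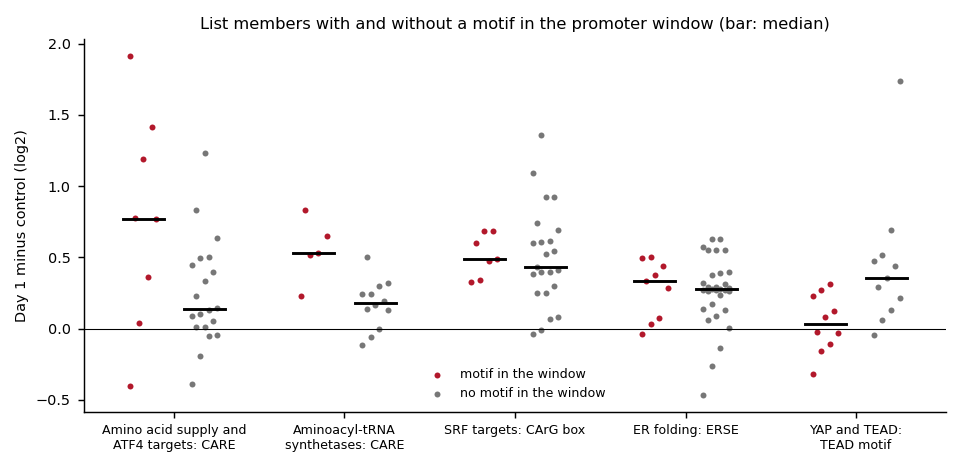
Change of list members with and without a motif: each point is a gene of the named list, the y axis is the log2 difference of day 1 from control, red points hold the motif in the promoter window, grey points do not, and bars are medians. The medians of genes with CARE, 0.77 and 0.53, lie above those without, 0.13 and 0.18, while the SRF medians lie close together and the TEAD medians lie the other way.

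Genes of the endoplasmic reticulum, where secreted proteins are translocated, glycosylated and folded, were higher in 36 and lower in 3 of 47 (median 0.28). Pdia3, a disulfide isomerase, went from 176, 182 and 177 FPKM to 266, 271 and 270 FPKM, 1.54-fold higher (1.49 to 1.6; adjusted p = 1.25e-08), and Stt3a, of the oligosaccharyltransferase, rose 1.55-fold. The fallen members were Pdia4 (1.1-fold), Srp54a and Sdf2l1, and without control replicate 3 or day 1 replicate 1 there was 1 in place of 3. Hspa5, the chaperone BiP and the usual marker of the unfolded protein response, went from 209, 217 and 207 FPKM to 290, 295 and 287 FPKM, 1.41-fold higher. The stress element ERSE, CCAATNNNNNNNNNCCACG, was in the windows of 9 of 40 members (22.5%), against 0.17% of all genes. Members with it had a median of 0.34 (6 higher, 0 lower) and members without it 0.28 (26 higher, 3 lower). It is shown in capitals for 4 chaperone genes that rose, chosen by the match:
Hspa5, chr2:34772003-34772065, plus strand: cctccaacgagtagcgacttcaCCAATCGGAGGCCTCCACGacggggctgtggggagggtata
Hsp90b1, chr10:86705616-86705678, minus strand: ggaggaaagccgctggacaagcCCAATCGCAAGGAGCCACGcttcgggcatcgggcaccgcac
Calr, chr8:84847053-84847115, minus strand: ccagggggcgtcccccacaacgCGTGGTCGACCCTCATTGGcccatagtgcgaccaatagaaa
Canx, chr11:50325778-50325840, minus strand: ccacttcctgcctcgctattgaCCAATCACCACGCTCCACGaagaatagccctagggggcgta
Hsp90b1, Calr and Canx, which encode the chaperones GRP94, calreticulin and calnexin, rose 1.42-fold, 1.22-fold and 1.36-fold. The run of letters between CCAAT and CCACG differs in every gene shown.

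Coat proteins that carry cargo between the endoplasmic reticulum and the Golgi were higher in 34 and lower in 0 of 43 by limma (median 0.20), with 0 lower at an unadjusted p under 0.05 and by limma-voom, and 1 by quantile normalization. Creb3l1, a membrane-bound transcription factor that drives secretory genes in collagen-making cells, went from 14.5, 14.7 and 14.5 FPKM to 30.6, 32 and 35 FPKM, 2.27-fold higher (2.11 to 2.45; adjusted p = 1.79e-08). Kdelr3, which returns escaped chaperones, rose 1.68-fold. Proteasome subunits were higher in 29 and lower in 1 of 35 (median 0.19), led by the activator Psme4 (1.46-fold), with Psmd3 1.15-fold lower. Quantile normalization called 4 lower, and leaving out control replicate 1 or 2 called 2.

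Among mitochondrial genes more were higher than lower. Nuclear-encoded subunits of oxidative phosphorylation were higher in 48 and lower in 4 of 74 (median 0.19), and genes of the citrate cycle and beta-oxidation in 20 and 4 of 34 (median 0.17). Of all tested genes 40.9% were higher at 20 to 50 FPKM, 50.1% at 50 to 100 FPKM and 56.2% above, so nothing particular to these lists is read from their counts. Ndufa4 went from 154, 174 and 160 FPKM to 236, 247 and 233 FPKM, 1.5-fold higher. Idh2, which makes NADPH in mitochondria, fell 1.42-fold from 165 ± 6.38 to 114 ± 3.63 FPKM. The counts for oxidative phosphorylation depended on scaling: quantile normalization gave 34 higher and 12 lower, and 7 were lower without control replicate 1.

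Lysosomal genes went both ways, 24 higher and 17 lower of 49 (median 0.06). The proteases and lipid hydrolases Ctsc and Asah1 rose 2.01-fold and 1.63-fold, while Cd68 and Laptm5, known from macrophages, fell 2.6-fold and 2.2-fold. Autophagy genes were higher in 10 and lower in 8 of 35 (median 0.04). With control replicate 2, day 1 replicate 1 or day 1 replicate 3 left out, 5 were lower.

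**Figure D4:**
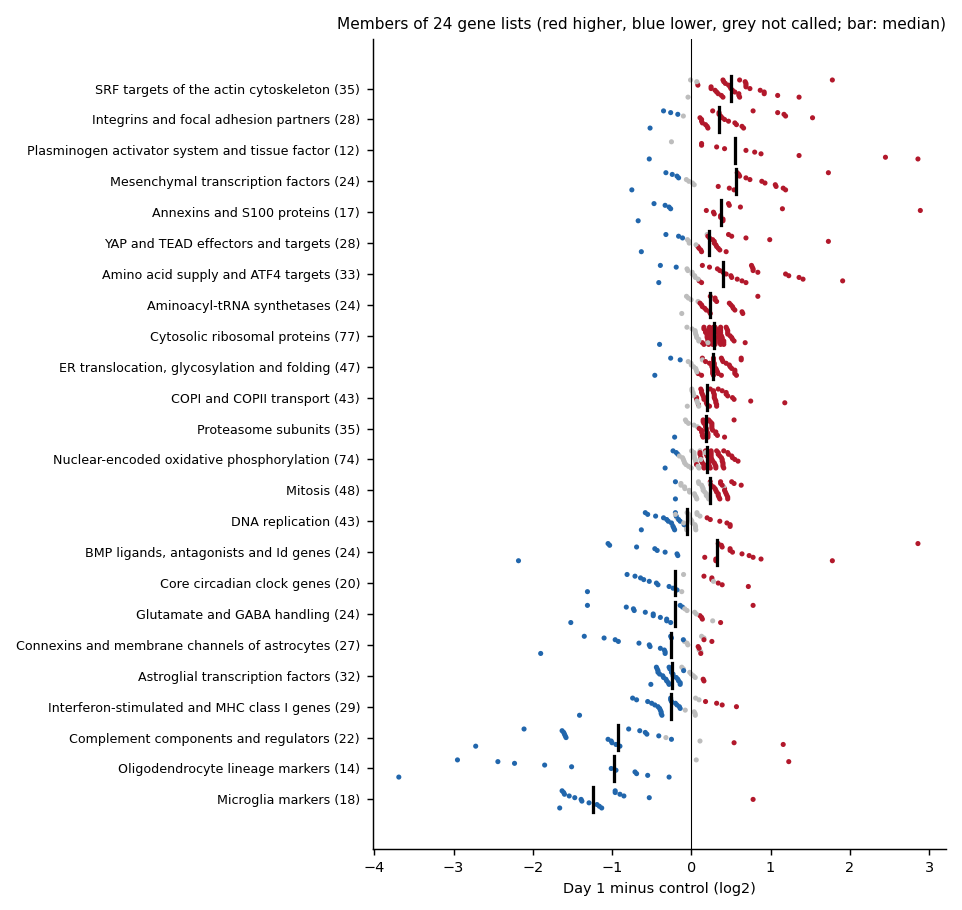
Members of 24 gene lists: each point is a gene, the x axis is the log2 difference of day 1 from control, colours give the call, black bars are medians, and the number of members tested stands after each name. SRF targets lie almost wholly to the right with a median of 0.50, and microglia markers almost wholly to the left with a median of -1.24.

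Antioxidant genes went both ways a day after the pulse. Of 36 tested genes of glutathione and NADPH, 18 were higher and 11 lower (median 0.06). Over all tested genes 31.1% were higher and 31.1% lower. Gpx7, a peroxidase of the endoplasmic reticulum, went from 10.9, 10.2 and 11 FPKM to 19.5, 19.7 and 19.8 FPKM, 1.87-fold higher, and Gsto1, a glutathione transferase, rose 1.56-fold. Gpx3, a secreted glutathione peroxidase, went from 74.1, 71.7 and 74.7 FPKM to 42, 42.3 and 39.8 FPKM, 1.74-fold lower. Hmox1, heme oxygenase, was at 92.2, 105 and 102 FPKM in control and 97.5, 95.9 and 111 FPKM on day 1, with overlapping groups and an adjusted p of 0.416 (1.04-fold, 95% interval 0.95 to 1.14). Iron genes were lower in 10 and higher in 6 of 23 (median -0.05): Tfrc, the transferrin receptor, rose 1.52-fold, and Trf, transferrin, and Cp, the ferroxidase ceruloplasmin, each fell 1.75-fold.

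Genes of the cell cycle did not move as one. Of 48 mitosis genes, 23 were higher and 2 lower (median 0.24), whereas of 43 DNA replication genes 6 were higher and 16 lower (median -0.06). Hmmr, a spindle protein, went from 3.46, 3.82 and 3.58 FPKM to 5.14, 5.8 and 5.72 FPKM, 1.55-fold higher, and Mcm3, of the replicative helicase, went from 8.72, 8.36 and 8.14 FPKM to 5.84, 6.39 and 5.79 FPKM, 1.36-fold lower. The lower mitosis genes were Mki67 (1.15-fold) and Aurkb (1.15-fold), and Aurkb lost its call in each fit that left out replicate 1 or 2 of control or of day 1 (adjusted p = 0.0597, 0.0581, 0.0704 and 0.0732). The difference between the 2 lists was not tested. Of 21 G1 regulators, 8 were higher and 8 lower (median 0.02). Ccng1 and Cdkn1a, targets of p53, both rose: Ccng1 went from 93.3, 97.9 and 94.7 FPKM to 209, 216 and 214 FPKM (2.28-fold, 2.16 to 2.41) and Cdkn1a from 83, 85.6 and 88.4 FPKM to 162, 167 and 168 FPKM (1.98-fold, 1.89 to 2.07). The cyclin Ccnd3 fell 1.37-fold.

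DNA repair genes were higher in 17 and lower in 12 of 47 (median 0.00). Mgmt, which removes alkyl groups from guanine, went from 8.43, 8.49 and 9.03 FPKM to 14.4, 15.9 and 14.3 FPKM, 1.75-fold higher, and Polk, a polymerase that copies past lesions, rose 1.51-fold. Ogg1, the glycosylase that removes oxidised guanine, went the other way, from 12.8, 13.6 and 13.2 FPKM to 9.25, 9.23 and 7.85 FPKM, 1.47-fold lower (1.35 to 1.59; adjusted p = 5.96e-06). H2ax fell 1.27-fold. In the BCL2 family 5 of 14 genes were higher and 6 lower (median -0.00). Bok and Bcl2l11, which promote apoptosis, rose 1.61-fold and 1.54-fold, and the survival gene Bcl2 fell 1.43-fold.

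The share of genes called depended on level and place in the genome. From 1 to 2 FPKM, 14.5% of genes were higher and 31.2% lower, and at 100 FPKM and above 56.2% were higher and 28.1% lower, so the higher share grew with level and the lower share did not. Genes spanning less than 5 kb were higher in 19.7% and lower in 35%, while those spanning 50 to 100 kb were higher in 38.8% and lower in 26.7%. On the X chromosome 43.3% of 423 genes were higher and 19.1% lower, and on chromosome 1 39.4% and 26.4%. Chromosomes 7 and 17 went the other way, with 22.1% and 24.1% higher and 39% and 39.4% lower. These are shares of genes in the same libraries, and genes are not independent replicates.

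**Figure D5:**
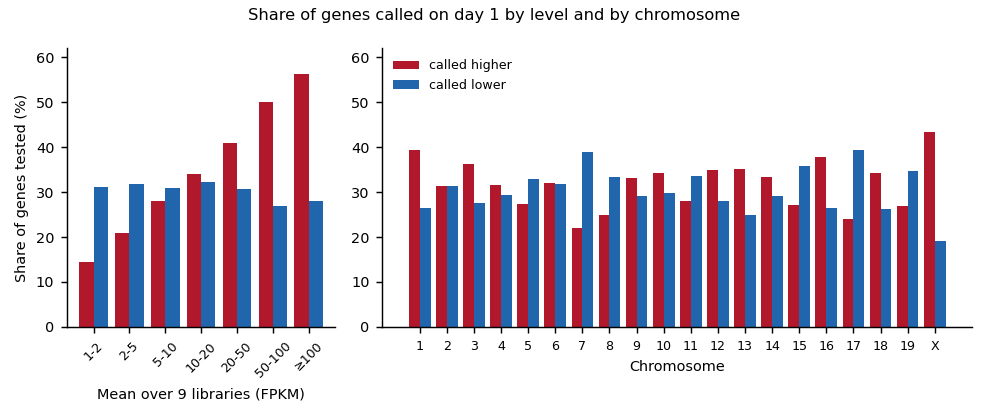
Share of tested genes called on day 1: the left bars group genes by mean FPKM over 9 libraries, the right bars by chromosome, both from 0 in percent, with red for higher and blue for lower. The red bars grow from 14.5% in the lowest to 56.2% in the highest level group, and the X chromosome has 43.3% higher and 19.1% lower.

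Promoter letters were counted on both strands in windows of 250 bases before to 50 after the start, for 9983 tested genes, 130 genes at least 2-fold higher and 174 at least 2-fold lower. The TATA box TATAAA was in 8.52%, 18.5% and 14.4% of these windows, and AP-1 TGANTCA in 6%, 9.23% and 8.62%. CARE TGATGNAA was in 2.57%, 6.92% and 5.17%, and the CArG box in 1.52%, 3.85% and 1.72%. The GC box GGGCGG went down with change, at 70.6%, 64.6% and 48.3%, as did CCGGAAGT of ETS factors (9.21%, 0.769% and 0.575%) and GCGCNTGCGC of NRF1 (11.7%, 1.54% and 2.3%). TEAD GGAATG was in 14.4%, 18.5% and 12.1%, the antioxidant element TGACNNNGC in 16.7%, 20.8% and 11.5%, and the CRE TGACGTCA in 3.58%, 1.54% and 1.15%. The E-box CACGTG was in 11.8%, 10.8% and 9.2%, and the CCAAT box in 43.3%, 36.9% and 37.4%. The other motifs searched were the CHR element TTTGAA of cell cycle genes, the IRF element GAAANNGAAA of interferon genes, the SNAI and ZEB element CAGGTG, the STAT element TTCNNNGAA and the SMAD element GTCTAGAC. They also included the PU.1 element GAGGAAGT, the sterol element TCACNCCAC, the D-box (TTACGTAA or TTATGTAA) and ERSE, whose first letters are a CCAAT box. The antioxidant element and the CRE share TGAC and can overlap. The GC box, ETS and NRF1 letters were thus less frequent in both sets with large changes than among all tested genes, and the difference was not tested.

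Day 3 libraries showed how far these levels held. Day 1 and day 3 differed for 7092 of 12611 genes (56.2%), with 3577 higher on day 1 (28.4%) and 3515 lower (27.9%). Against control, 7.37% of genes were higher and 6.45% lower on day 3. The 3 comparisons share libraries, so only levels are set side by side. Apod was at 33.6, 31.8 and 27.1 FPKM on day 3, C3 at 71.2, 79.3 and 70.6 FPKM and Igf2 at 119, 122 and 116 FPKM, all far above their day 1 values. Has2 was at 0.525, 0.457 and 0.391 FPKM, Inhba at 3.64, 3.25 and 4.02 FPKM and Lif at 2.08, 2.25 and 2.31 FPKM, all far below. Other genes kept more of their change: Tgfa stood at 4.8, 4.74 and 5.04 FPKM, and Cdkn1a at 136, 137 and 142 FPKM, between its control and day 1 values. Bcas1, a marker of maturing oligodendrocytes, fell from 13.6, 13.3 and 13.6 FPKM in control to 1.66, 1.85 and 1.39 FPKM on day 1 and stood at 2.89, 3.35 and 3.2 FPKM on day 3.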

How the data were processed

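Poly(A) RNA libraries, 3 each for control, day 1 and day 3, were matched to the 9 columns of the deposited table by the column name in each library's description, and no column was left over. The table holds FPKM, computed by the authors per library. The submitters' processing notes name STAR 2.7.3a, cutadapt 2.6, FastQC 0.12.1 and DESeq2, and the builds GRCm38 and mm10. No source used here gives the counter, annotation, strand handling or filters. Whole reads were recovered from FPKM, gene length and library total, and served for depth and for limma-voom. Depth gave 23032594 to 38414668 reads per library.

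FPKM were divided by median-of-ratios factors over the genes tested (0.975 to 1.02), and taken as log2(FPKM + 0.1). The 12611 genes at a mean of 1 FPKM or more entered, and all 9 libraries were fitted with group as the only term in limma 3.58.1 (R 4.3.3) with an intensity trend. Tests were two-sided, with Benjamini-Hochberg adjustment over all 12611 genes and a threshold of 0.05; intervals are 95%. Levels are deposited FPKM; folds are on the log2(FPKM + 0.1) scale, which understates changes of low genes. The script was tested on simulated data. Limma on log values was the planned main test, since the unit was expected to be FPKM, which is not a count. Limma-voom on the recovered reads was tried too.

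The 59 gene lists (1698 genes, all found, 1483 tested), the comparison and the motifs were chosen with earlier results of these data known, and lists are described by counts and medians, with no list test. Named genes are the 12 largest called rises and falls with no overlap between groups and 5 FPKM or more in the higher one, up to 2 rises and 2 falls per list by the same criteria, all members called in a direction with 3 or fewer, and 12 fixed genes. Of the 221 genes so named, those that carry each account are given; some named by the rule are not reported. Others are marked where they appear. Coordinates and promoter windows are RefSeq's, GRCm38.p6; 12603 genes had a record and 9983 a promoter window. Figures were drawn with matplotlib 3.10.9.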

Additional observations from a re-analysis of the deposited data

Results flagged for a closer look

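Day 1 and day 3 differed for 7092 genes by limma, a comparison of the 2 treated groups that have the same controls. Among the named genes, 9 were called against control on both days in opposite directions, and the difference between the days was itself tested. Acta2, smooth muscle actin, was higher on day 1 (log2 1.09) and lower on day 3 (-0.23), with a difference between the days of 1.32 (adjusted p = 2.03e-08). The spindle genes Hmmr (0.63 and -0.44, difference 1.08) and Kif20a (0.46 and -0.34, difference 0.81) and the transferrin receptor gene Tfrc (0.60 and -0.17, difference 0.77) did the same. The acute phase gene Lcn2 was lower on day 1 (-2.03) and higher on day 3 (0.29), a difference of -2.32 (adjusted p = 4.18e-09). So were the ferroxidase gene Cp (-0.81 and 0.13, difference -0.94), the thrombomodulin gene Thbd (-0.53 and 0.28, difference -0.81), Phlda1 (-0.47 and 0.19, difference -0.66) and the cytolinker gene Dst (-0.41 and 0.17, difference -0.58).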

How the results depend on the processing

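Of 4612 values of the 221 named genes under 21 alternatives, 4586 kept their direction and their side of the threshold, 21 lost the call, 5 gained it and 0 reversed; 211 genes kept their call under all 21. The counts of called genes, 3923 higher and 3916 lower, stayed within 1.5 times under each alternative. With single libraries left out they were 3609 to 3927 higher and 3609 to 3904 lower. Counts of at least 2-fold changes depended on the treatment of low genes: 186 higher and 247 lower became 123 and 110 with a pseudocount of 1, 330 and 460 with no filter, and 93 and 86 with a filter at a mean of 5 FPKM. FPKM as deposited gave 3319 higher and 4348 lower, and the share of higher genes among those called was 43.3% in place of 50%. Scaling factors from all genes above 0, an alternative chosen after seeing the data, gave 4084 and 3749. Limma-voom on recovered reads gave 3954 higher and 3916 lower. The replicate block gave 3943 higher and 3951 lower, and 7653 of the 7839 called genes were called in the same direction with it. Deviations of same-numbered libraries had correlations of -0.079 to 0.111, and those of differently numbered libraries -0.149 to 0.147. With 3 libraries in each group these values cannot decide whether same-numbered libraries came from one culture or preparation. Quantile normalization also ended the calls for Gfap (adjusted p = 0.419) and Map2 (0.103). Sdf2l1 lost its call without control replicate 3 (0.08) or day 1 replicate 1 or 2 (0.0801 and 0.0895), and Snhg3 with limma-voom (0.0631). The causes were not tested. The day 1 libraries were the shallower ones, and an effect of depth on the calls of low genes was not tested.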

Other observations

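The largest rise of any gene tested on day 1 fell outside the naming rule because its level stayed just under the size required, and it was chosen after its values were seen. Rln3 (chromosome 8, 84043067 to 84044979, GRCm38.p6) encodes relaxin-3, a peptide known from brainstem neurons. It was at 0, 0.0548 and 0.0668 FPKM in control, 5.52, 4.08 and 5.03 FPKM on day 1 and 0.0689, 0.0575 and 0.115 FPKM on day 3. These values stand for 0, 1 and 1 reads in the control libraries, 62, 54 and 55 on day 1, and 1, 1 and 2 on day 3. Per read sequenced, the ratio of day 1 to control was 115, with reads pooled over the 3 libraries of each group, and is given as a description. All 3 day 1 libraries had it. Rln3 was picked for this change and reached the level tested only through day 1, so no test is given. Of 3 genes within 30 kb, Il27ra lay below the level tested. Rfx1 was lower, from 8.07 ± 0.398 to 6.44 ± 0.693 FPKM (limma, adjusted p = 0.00577), and Palm3, which reached that level only through control, went from 1.38 ± 0.213 to 0.846 ± 0.0905 FPKM.

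Such near on and off behaviour was rare. With fewer than 10 reads over the 3 control libraries and at least 100 over the 3 day 1 libraries there were 2 genes, Rln3 and the uncharacterised C430002N11Rik (8 and 104 reads). In the other direction there were 7 genes. The limits are on raw reads, and each day 1 library held fewer reads (23032594 to 27850348) than each control (30278210 to 38414668). The counts in the 2 directions are therefore not on equal terms. Ptgdr, a receptor for prostaglandin D2, had 293 reads in control, 5 on day 1 and 293 on day 3, beside the fall of the synthase gene Ptgds. Slc6a13, a GABA transporter, had 163, 4 and 108 reads, and Mobp, a myelin gene, 228, 9 and 182. Angptl7 had 123, 7 and 109 reads. Fa2h, which makes myelin lipids, had 141, 6 and 35 reads, and the ciliogenesis genes Mcidas and Cdc20b had 107, 8 and 29 and 103, 7 and 34. These genes were chosen after their reads were seen.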
